A study of Mus musculus with 47 samples.

Results

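Microglia from mice without an intact Apoe gene were given myelin or left untreated, and the response of the cells to myelin was read in 10 of the 47 libraries of the series. The 10 libraries were taken by their column names, 5 after myelin (KO myelin) and 5 untreated (KO untreated). The cells were primary microglia cultured from the forebrain of C57BL/6 mice, in DMEM with fetal bovine serum and antibiotics. KO myelin cultures met myelin for 3 h and were collected 21 h afterwards, and KO untreated cultures stayed without myelin for the same 24 h. The Apoe-/- line came from the Jackson Laboratory; as background, it is a germline knockout, so no cell type in these cultures had an intact Apoe. The responses of wild-type cells (WT, 5 myelin and 5 untreated libraries) and of cells with human APOE3 (E3, 4 and 4) or APOE4 (E4, 5 and 5) in place of the mouse gene, handled the same way, served only for differences between genotypes. Whether the replicates of a group were separate animals or cultures is not stated in the labels, and p-values therefore reflect library-to-library spread, part of which may be technical.

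Microglia are the resident macrophages of the brain and clear myelin debris. Engulfed myelin is taken apart in lysosomes, and the cholesterol it releases is turned into oxysterols, which act on the nuclear receptors LXR to raise exporters such as Abca1 and Abcg1, while the sterol-synthesis genes under SREBP2 are turned down. Apolipoprotein E is itself an LXR target and the main lipid acceptor made by brain glia. The other programmes read here are the antioxidant genes under the transcription factor NRF2, the chaperones of the endoplasmic reticulum (ER), and the immediate early genes that respond within minutes to hours of a stimulus.

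Expression is given as scaled TPM: the deposited TPM of each library, rescaled to a total of 1000000 over nuclear protein-coding genes and corrected by a trimmed mean. Coding genes held 23.4 ± 1.59% of the deposited TPM in KO myelin libraries (SD, n = 5, range 21.7 to 25.9) and 20.8 ± 3.39% in KO untreated libraries (n = 5, range 16.4 to 24.9), with untreated replicates 2 and 5 lowest. The non-coding gene Gm23935 held most of the rest. Since TPM carry no count, sequencing depth is unknown here and no counting interval is given. Summed over 16 genes, markers of microglia and macrophages held 35427 to 39502 scaled TPM in KO myelin libraries and 32486 to 38762 in KO untreated libraries. Cx3cr1, the fractalkine receptor of microglia, averaged 468 scaled TPM after myelin and 376 untreated. P2ry12, the purinergic receptor of resting microglia in the brain, was low in these cultures, at 4.39 to 6.07 scaled TPM in KO myelin libraries and 1.51 to 4.7 in KO untreated libraries, and did not pass the filter of at least 5 scaled TPM in at least 5 of the 10 libraries.

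The targeted gene was read first. Apoe (chromosome 7 from 19696109 to 19699188, mm10) stood at 75.2, 81.4, 63.1, 65.3 and 73.7 scaled TPM in KO myelin libraries and at 81.6, 67.2, 67.8, 70.4 and 75.9 in KO untreated libraries. WT myelin libraries averaged 67392 ± 10147 scaled TPM and WT untreated libraries 55470 ± 6732 (SD, n = 5 each). All 10 KO libraries lay far below every WT library, which fits their labels. Myelin made no detectable difference within the knockout: the log2 difference was -0.02, with a two-sided exact permutation p of 0.833. KO untreated against WT untreated gave a log2 difference of -9.55 and an exact p of 0.00794, the smallest that 252 splits allow.

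The response of the knockout cells was small. Of 8933 genes tested with limma on log2(scaled TPM + 1), 246 passed an adjusted p of 0.05 (2.75% of those tested) and are here called: 122 were higher after myelin (1.37%) and 124 lower (1.39%). The median size of a called change was 0.41 on the log2 scale. Only 1 gene rose and 3 fell by more than 2-fold, and the called changes ran from -1.41 for Lcn2 to 1.14 for Pkd1. In 221 of the called genes the 5 KO myelin values and the 5 KO untreated values did not overlap, as in 523 of all tested genes (5.85%; KO myelin above in 3.22%, below in 2.63%). With the coding total alone as scale, 142 genes rose and 96 fell, so the balance of directions rests on the scaling. The count also rests on single libraries. It was 145, 124, 118 and 143 without KO myelin replicate 1, 2, 3 or 5, and 121, 150, 120 and 129 without KO untreated replicate 1, 2, 3 or 5; without KO myelin replicate 4 it was 307 and without KO untreated replicate 4 it was 335. When the spread was taken from all 47 libraries without weights, 13 genes were called and 503 were at an unadjusted p under 0.05. With the level of astrocyte markers as a covariate, an alternative chosen after seeing the data, 0 genes were called by limma, with 292 at an unadjusted p under 0.05. That level was itself lower after myelin (mean log2 of 2.18 in KO myelin and 2.64 in KO untreated libraries). The fit therefore cannot separate it from treatment.

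**Figure D1:**
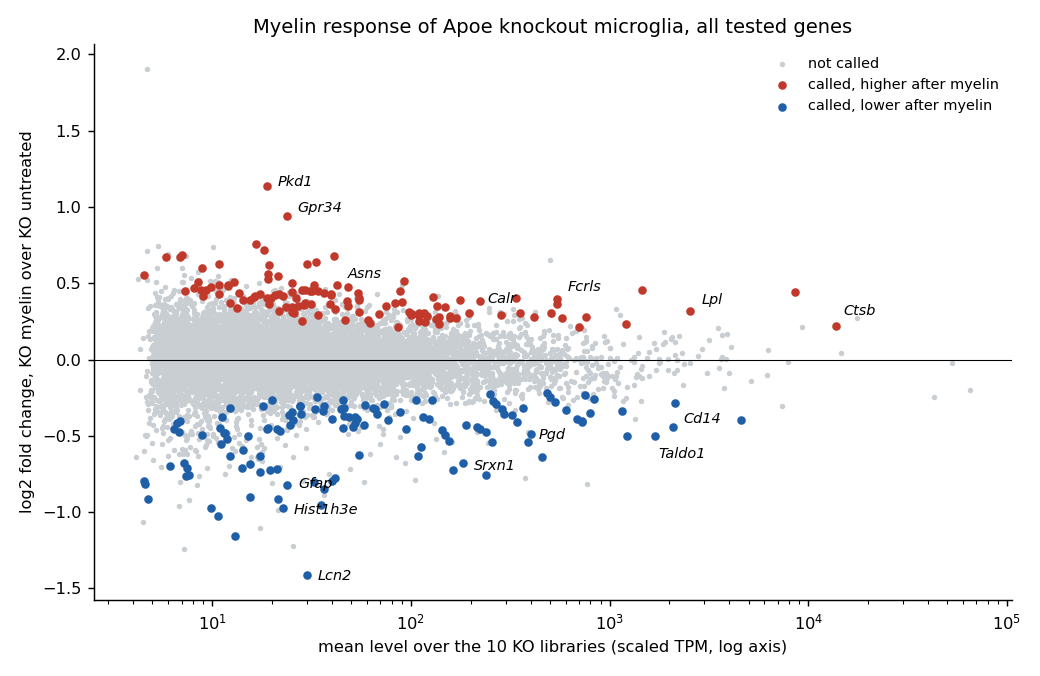
Log2 fold change of KO myelin over KO untreated (vertical axis) against the mean level over the 10 KO libraries in scaled TPM (horizontal log axis), 1 point per tested gene. Red points are the 122 genes called higher and blue points the 124 called lower; most called changes are small, between Lcn2 at -1.41 and Pkd1 at 1.14.

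Genes of the antioxidant and pentose phosphate programme that NRF2 controls were among those that fell. In the list of NRF2 targets, 8 of 27 tested members fell, against 1.39% of all tested genes, and 0 rose; the median of all 27 was -0.27, against 0.01 over all tested genes, and every one of the 27 had a negative estimate. The groups did not overlap in 10 of the 27, with KO myelin the lower one each time, against 2.63% of all genes. Srxn1, which encodes sulfiredoxin and repairs over-oxidised peroxiredoxins, stood at 137, 122, 136, 162 and 141 scaled TPM in KO myelin libraries. In KO untreated libraries it stood at 302, 193, 205, 228 and 203. Every KO myelin library lay below every untreated one, and untreated replicate 1 was the highest. The log2 fold change was -0.68 ± 0.11 (SE, adjusted p = 0.0105).

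Pgd, an enzyme of the pentose phosphate pathway that supplies NADPH (chromosome 4 from 149149991 to 149166771), averaged 314 ± 19.4 scaled TPM in KO myelin libraries and 460 ± 57.5 in KO untreated libraries (SD, n = 5 each). It ranged over 283 to 331 after myelin and over 421 to 560 untreated, and fell by 0.54 ± 0.08 on the log2 scale (adjusted p = 0.00598). Taldo1, the transaldolase of the same pathway, held 1503, 1422, 1301, 1539 and 1243 scaled TPM in KO myelin libraries and 2062, 1888, 1969, 1941 and 2027 in KO untreated libraries. The gap between the groups was wider than the range within either, and the fold change was -0.50 ± 0.06 (adjusted p = 0.00424). Slc7a11, the cystine importer that feeds glutathione synthesis, stood at 10.6, 11.3, 10.3, 11.7 and 8.43 scaled TPM in KO myelin libraries. It stood at 23, 15.2, 16.5, 16.9 and 17.3 in KO untreated libraries, again with untreated replicate 1 on top. Its log2 fold change was -0.71 ± 0.12 (adjusted p = 0.0101). These 4 calls held in each of the 10 fits that left out 1 library.

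Among the other called members, Blvrb, which reduces biliverdin to bilirubin, changed by -0.39, and the peroxidases Prdx1 and Prdx6 by -0.39 and -0.32. Cat, the catalase that breaks down hydrogen peroxide, changed by -0.35; its call ended in 8 of the 10 single removals, with a highest adjusted p of 0.0971. The call on Prdx1 ended in 5 removals (highest adjusted p = 0.0662), and that on Prdx6 only without KO untreated replicate 3 (adjusted p = 0.0501). Outside the list, and picked after their values were seen, Osgin1 (-0.72), the carbonyl reductase Cbr3 (-0.63) and the glutathione transferases Mgst1 (-0.47) and Gstm1 (-0.46) were called lower as well. Nfe2l2, which encodes NRF2 itself, had a fold change of -0.05 (adjusted p = 0.639) and Hmox1, the inducible haem oxygenase, one of -0.03 (adjusted p = 0.846). Gclm, a subunit of the enzyme that begins glutathione synthesis, varied widely: 252, 300, 341, 340 and 142 scaled TPM after myelin and 680, 416, 563, 283 and 411 untreated, which overlap (adjusted p = 0.124). The list count was 5 without KO untreated replicate 3, 4 without KO untreated replicates 2 and 5 together and 0 with the astrocyte covariate, where the median was -0.34. It was 4 with the replicate number as a block and 2 with all 47 libraries without weights.

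The promoter of Srxn1 is shown because Srxn1 belongs to this list and its response also differed from those of the other genotypes, given further on. It is a RefSeq window of 250 bases before to 50 bases after the annotated start, on the plus strand at chr2:152105274-152105573 (GRCm38.p6, the assembly behind mm10). Capitals mark matches to the antioxidant response element, searched as TGACNNNGC or TGAGNNNGC on both strands; there were 3, and none overlapped a match of the other motifs searched here.
Srxn1: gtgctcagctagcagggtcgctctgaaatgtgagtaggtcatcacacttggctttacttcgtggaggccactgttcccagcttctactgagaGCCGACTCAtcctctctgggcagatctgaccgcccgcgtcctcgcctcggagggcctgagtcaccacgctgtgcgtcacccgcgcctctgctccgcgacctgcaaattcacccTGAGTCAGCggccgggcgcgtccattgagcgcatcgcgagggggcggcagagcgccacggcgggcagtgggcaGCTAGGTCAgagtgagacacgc
Of 32851 promoter windows of this length in the table, 27.8% held such a match. Of the 7 called members with a window (Prdx6 had none), 6 held it, and of the 22 tested members with a window, 11 did. A match is a string of letters in this window and not a measured binding site.

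Chaperones of the ER moved the other way. In the list of ER chaperones, 7 of 20 tested members rose, against 1.37% of all tested genes, and 0 fell; 19 of 20 had a positive estimate, and the median was 0.20. Calr, which encodes the calcium-binding chaperone calreticulin, stood at 466, 453, 449, 452 and 464 scaled TPM in KO myelin libraries and at 354, 390, 386, 376 and 377 in KO untreated libraries. The libraries of each group lay close together and apart from the other group. The change was 0.28 ± 0.04 on the log2 scale (adjusted p = 0.00738), small but far above its error. Hsp90b1, the HSP90 paralogue of the ER, stood at 219, 233, 205, 208 and 223 scaled TPM after myelin and at 158, 167, 184, 182 and 189 untreated, a change of 0.31 ± 0.06 (adjusted p = 0.0214). Pdia6, a protein disulfide isomerase, averaged 165 ± 10 scaled TPM in KO myelin libraries and 130 ± 11 in KO untreated libraries, a change of 0.34 ± 0.07 (adjusted p = 0.0197). Both groups kept apart in each of these genes. Sdf2l1 (0.29), Pdia4 (0.30), Canx (0.27) and Pdia3 (0.29), which assist folding and disulfide formation, were called too, but these 4 calls ended in 6, 7, 8 and 8 of the 10 single removals. Hspa5, the master chaperone BiP, had an estimate of 0.33 and overlapping groups (adjusted p = 0.0825).

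The number of called chaperones hung on single libraries. It was 4, 1, 3 and 3 without KO myelin replicate 1, 2, 3 or 5, and 3, 3, 4 and 3 without KO untreated replicate 1, 2, 3 or 5. The call on Calr held in all 10 removals, that on Pdia6 ended without KO myelin replicate 2 (adjusted p = 0.0532), and that on Hsp90b1 ended without KO myelin replicate 2 or KO untreated replicate 2 (highest adjusted p = 0.0559). With KO untreated replicates 2 and 5 both left out 1 was called, and with the astrocyte covariate 0, where the median was 0.22. Without a filter on low values limma called 1. With the replicate number as a block it called 0, and with all 47 libraries without weights 0, so Calr lost its call there too. The median was 0.20 in each of these fits.

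Promoters of Calr and Hsp90b1 are shown because the ER stress response element, the site through which ATF6 and NF-Y raise ER chaperones, is spelled out in both. Windows are as above, on the minus strand, at chr8:84846882-84847181 for Calr and chr10:86705395-86705694 for Hsp90b1 (GRCm38.p6), written 5′ to 3′ along each gene. Capitals mark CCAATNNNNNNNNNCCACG, searched on both strands; Calr held 1 match and Hsp90b1 2, none overlapping another motif searched.
Calr: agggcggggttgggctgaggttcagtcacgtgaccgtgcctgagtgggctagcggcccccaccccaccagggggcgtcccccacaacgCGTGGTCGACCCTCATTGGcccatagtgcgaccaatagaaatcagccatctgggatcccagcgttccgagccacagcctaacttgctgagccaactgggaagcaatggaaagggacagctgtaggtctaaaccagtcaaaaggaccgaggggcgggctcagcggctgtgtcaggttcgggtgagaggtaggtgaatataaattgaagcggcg
Hsp90b1: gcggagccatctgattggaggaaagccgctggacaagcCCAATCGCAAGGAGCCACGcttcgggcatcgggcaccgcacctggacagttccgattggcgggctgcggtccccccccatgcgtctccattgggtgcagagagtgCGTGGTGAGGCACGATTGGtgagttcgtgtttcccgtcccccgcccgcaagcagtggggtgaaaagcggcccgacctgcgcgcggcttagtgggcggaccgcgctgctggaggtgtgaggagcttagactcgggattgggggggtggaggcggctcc
Of all 32851 windows, 39 (0.119%) held the element. Among the 7 called chaperones, 4 did (Hsp90b1, Pdia6, Calr and Canx), and among the 18 tested members with a window, 8 did, so uncalled members held it as well.

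The integrated stress response, run by ATF4, did not move as a block: 1 of 18 tested members rose and 2 fell, against 1.37% and 1.39% of all tested genes. The member that rose was Asns, asparagine synthetase (chromosome 6 from 7675169 to 7693254). It stood at 48.5, 54, 47.2, 51.4 and 47.4 scaled TPM in KO myelin libraries and at 34.8, 33.6, 36.8, 37.8 and 33.1 in KO untreated libraries. The lowest KO myelin value was well above the highest untreated one, and the log2 fold change was 0.49 ± 0.06 (adjusted p = 0.00424). Those that fell were Slc7a11, given above, and Ppp1r15a, which encodes the phosphatase subunit GADD34, at -0.39 ± 0.06 (adjusted p = 0.00938). The calls on Asns and Ppp1r15a held in all 10 single removals.

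Asns and Slc7a11 are both ATF4 targets and moved in opposite directions, so their promoters are set side by side, with matches to the C/EBP-ATF response element TGATGNAA in capitals (both strands). The windows lie on the minus strand at chr6:7693160-7693459 for Asns and chr3:50443564-50443863 for Slc7a11 (GRCm38.p6). Asns held 1 match and Slc7a11 2, with no overlap with another motif searched.
Asns: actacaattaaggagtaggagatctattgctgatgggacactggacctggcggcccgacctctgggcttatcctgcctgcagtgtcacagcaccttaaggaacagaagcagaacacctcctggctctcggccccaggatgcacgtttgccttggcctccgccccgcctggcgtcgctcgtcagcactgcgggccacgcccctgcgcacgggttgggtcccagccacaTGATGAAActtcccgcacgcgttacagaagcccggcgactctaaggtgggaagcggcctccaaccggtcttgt
Slc7a11: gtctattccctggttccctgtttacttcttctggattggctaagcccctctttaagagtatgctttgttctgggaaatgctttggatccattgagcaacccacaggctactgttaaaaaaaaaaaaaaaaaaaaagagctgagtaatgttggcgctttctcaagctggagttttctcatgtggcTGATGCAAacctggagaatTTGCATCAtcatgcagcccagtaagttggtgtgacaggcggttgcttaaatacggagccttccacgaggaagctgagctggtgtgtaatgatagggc
The element was in 3.97% of all 32851 windows, in 5 of the 16 tested members with a window and in 2 of the 3 called ones, 1 of which rose and 1 of which fell.

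Of 18 tested immediate early genes 8 fell, against 1.39% of all tested genes, and 0 rose, with a median of -0.31. Nr4a1, an orphan nuclear receptor induced by many stimuli, stood at 34.7, 35.8, 39.2, 41.7 and 39.4 scaled TPM in KO myelin libraries and at 53.5, 53.9, 53.6, 47.8 and 52.8 in KO untreated libraries. All 5 KO myelin values lay below the untreated ones, and the change was -0.45 ± 0.07 (adjusted p = 0.00598). Dusp1, a phosphatase that switches off MAP kinases, averaged 536 ± 20.8 scaled TPM after myelin and 673 ± 28.5 untreated, a change of -0.33 ± 0.05 (adjusted p = 0.00598). Zfp36, which destabilises cytokine mRNA, ranged over 234 to 247 scaled TPM in KO myelin libraries and over 286 to 313 in KO untreated libraries, a change of -0.29 ± 0.04 (adjusted p = 0.00665). Btg2, an antiproliferative gene, ranged over 72.6 to 87.9 scaled TPM after myelin and over 103 to 126 untreated (-0.46 ± 0.07, adjusted p = 0.00738). The AP-1 subunits Fosl2 (-0.48), Jun (-0.39), Fos (-0.35) and Junb (-0.22) made up the other calls; that on Junb ended in all 10 single removals and that on Fos in 5. The list count stayed between 6 and 8 over the removals and was 3 without KO untreated replicates 2 and 5 together. It was 0 with the replicate number as a block and 0 with all 47 libraries without weights, each with a median of -0.31. With the astrocyte covariate it was 0 as well, where the median was -0.13 and the estimate of Fos turned to 0.09.

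Inflammatory genes gave few calls. Lcn2, the acute-phase siderophore-binding lipocalin, had the deepest fall of all: 15.1, 14.4, 13.4, 22.7 and 11.9 scaled TPM in KO myelin libraries, against 27.5, 71.1, 51.7, 33.7 and 37.6 in KO untreated libraries. The untreated values spread widely, yet no KO myelin library reached the lowest untreated one (-1.41 ± 0.23, adjusted p = 0.0101). Cd14, the lipopolysaccharide co-receptor, held 1936, 1893, 1733, 1769 and 1524 scaled TPM after myelin and 2377, 2442, 2351, 2312 and 2494 untreated (-0.44 ± 0.06, adjusted p = 0.00598). Il18bp, a soluble inhibitor of interleukin-18, stood at 13.4, 12.7, 13, 15.2 and 12 scaled TPM in KO myelin libraries and at 9.37, 8.94, 7.65, 7.82 and 7.41 in KO untreated libraries, a rise of 0.63 ± 0.09 (adjusted p = 0.00598). These 3 calls held in all single removals.

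Of 19 tested members in the list of inflammatory cytokines and NF-kB targets, 1 fell, against 1.39% of all tested genes, and 0 rose. The median was -0.14, with 2 higher and 7 lower by limma at an unadjusted p under 0.05. The called member was Tnfaip2, at -0.53 (adjusted p = 0.0275), with overlapping groups and a call that ended in 7 removals. Among 14 chemokines 1 rose, against 1.37% of all tested genes, and 1 fell, against 1.39%. Ccl4, which attracts T cells and macrophages, stood at 421, 375, 354, 386 and 391 scaled TPM after myelin and at 227, 333, 313, 317 and 278 untreated (0.40 ± 0.09, adjusted p = 0.0409). Cxcl2, a neutrophil attractant, was at -0.36 (adjusted p = 0.029). Both calls ended in 7 of the 10 removals, with highest adjusted p of 0.089 for Ccl4 and 0.074 for Cxcl2. Il1b was at -0.54 (adjusted p = 0.0931), Tnf at 0.15 (adjusted p = 0.23) and Ccl2 at 0.04 (adjusted p = 0.895), all with overlapping groups. None of 20 tested interferon-stimulated genes was called by limma, with 1 higher and 1 lower at an unadjusted p under 0.05.

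Some surface and identity genes of microglia rose. Of 15 tested homeostatic genes 3 rose, against 1.37% of all tested genes, and 1 fell (Jun, given above), against 1.39%. The median was 0.24, and 6 of the 15 had a negative estimate. Gpr34, a receptor for lysophosphatidylserine on the X chromosome (13632089 to 13640858), stood at 28.9, 36.7, 29.2, 25.7 and 35.3 scaled TPM in KO myelin libraries and at 9.65, 17.8, 19.4, 20.6 and 13.3 in KO untreated libraries. The groups stood apart but each was wide, and the change was 0.94 ± 0.18 (adjusted p = 0.0168). Fcrls, an Fc receptor-like gene marking mouse microglia, held 629, 610, 590, 608 and 646 scaled TPM after myelin and 424, 454, 471, 502 and 489 untreated, a tighter change of 0.40 ± 0.05 (adjusted p = 0.00424). The calls on Gpr34 and Fcrls held in all 10 single removals. The count of risen homeostatic genes was 5 without KO myelin replicate 4 and 7 without KO untreated replicate 4; it was 1 without KO untreated replicates 2 and 5 together.

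Other genes with the highest fold changes were Fgf13 (0.76 ± 0.14, adjusted p = 0.0147), a growth factor homologue that stays inside the cell, and Mctp1, a calcium-binding membrane protein. Mctp1 stood at 22, 22.1, 22.9, 20.9 and 26.2 scaled TPM in KO myelin libraries and at 12.2, 13.4, 12.9, 16.7 and 12.3 in KO untreated libraries (0.72 ± 0.09, adjusted p = 0.00424). Gatm, the first enzyme of creatine synthesis, averaged 50.6 ± 5.52 scaled TPM after myelin and 31.3 ± 4.08 untreated (0.68 ± 0.10, adjusted p = 0.00535). Slc9a9, a sodium-proton exchanger of endosomes, averaged 36.4 ± 3.12 scaled TPM after myelin and 23.5 ± 4.13 untreated (0.63 ± 0.12, adjusted p = 0.0176). These 4 calls held in all single removals. Plau, the urokinase plasminogen activator, rose by 0.62 ± 0.12 (adjusted p = 0.0217), a call that ended without KO myelin replicate 2 or KO untreated replicate 1 (highest adjusted p = 0.0532). Mrc1, the mannose receptor, rose by 0.35 ± 0.06 (adjusted p = 0.0144). Pkd1, which encodes polycystin-1 and was named after its value was seen, had the highest called estimate, 1.14 ± 0.24 (adjusted p = 0.0286). Its 5 KO myelin values, 20.4, 29.5, 17.6, 30.2 and 31.3 scaled TPM, overlapped the untreated ones, 11, 10.3, 21.4, 8.18 and 7.56, through untreated replicate 3, and the call ended in 6 of the 10 removals.

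**Figure D2:**
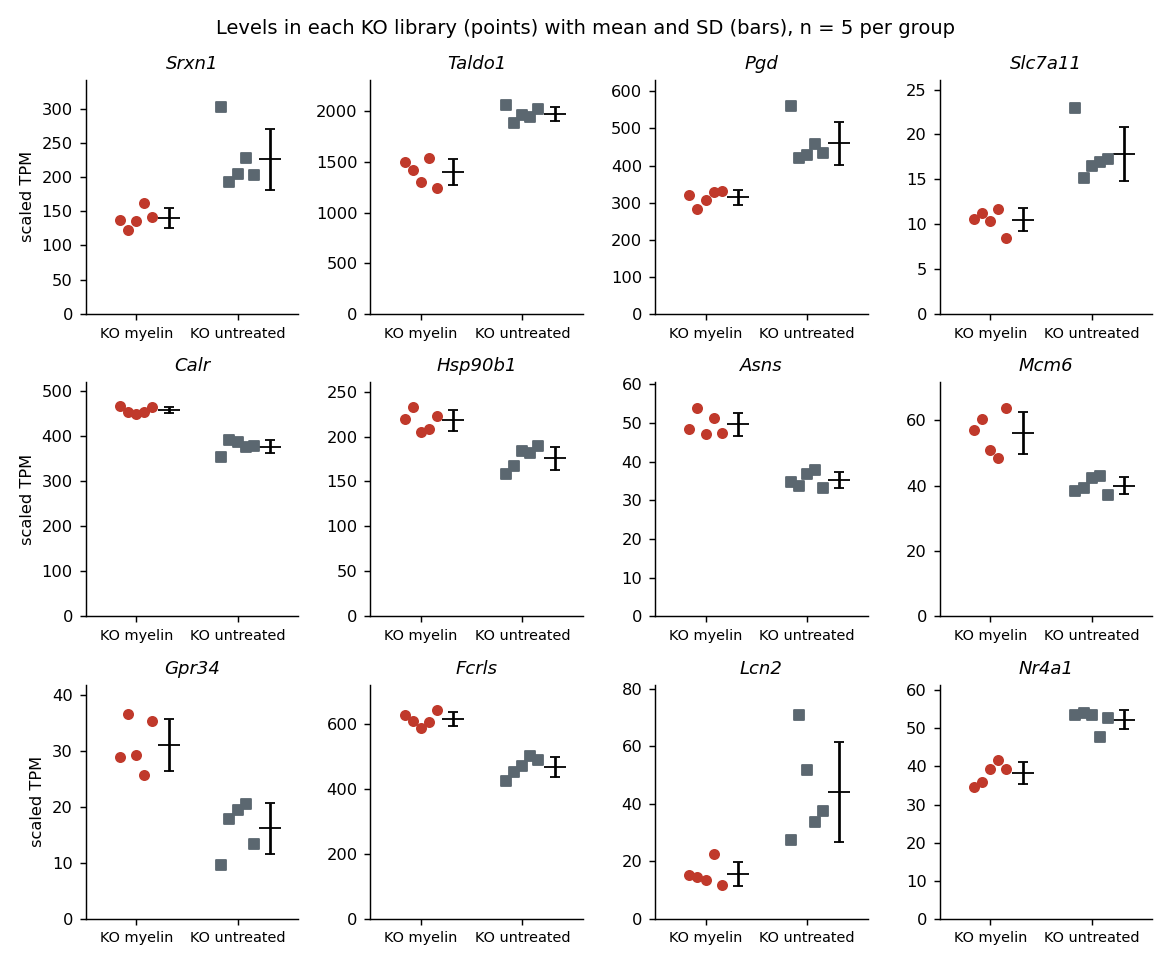
Scaled TPM of 12 genes in each KO library, KO myelin on the left (red) and KO untreated on the right (grey); bars give the mean and SD, n = 5 per group, and each vertical axis starts at 0. In none of the 12 genes do the groups overlap; the KO untreated values of Lcn2 and Gpr34 spread widely, and untreated replicate 1 stands highest in Srxn1, Pgd and Slc7a11.

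Of 36 tested lysosomal hydrolases and membrane proteins 3 rose, against 1.37% of all tested genes, and 0 fell, with a median of 0.11. Among them were the proteases Ctsc (0.31, adjusted p = 0.029) and Ctsb. Ctsb, cathepsin B, stood at 14469, 14668, 14442, 14959 and 15843 scaled TPM in KO myelin libraries and at 12835, 12922, 12355, 13092 and 12606 in KO untreated libraries, a rise of 0.22 ± 0.05 (adjusted p = 0.0316). The groups did not overlap, but the call ended in 7 of the 10 removals (highest adjusted p = 0.0929). Ctsd, cathepsin D, ranged over 17253 to 22932 scaled TPM after myelin and over 15182 to 16865 untreated, without overlap, and missed the threshold (0.27, adjusted p = 0.0843). None of 18 subunits of the vacuolar proton pump was called by limma, with 3 higher and 1 lower at an unadjusted p under 0.05. Among 19 genes of MiT/TFE factors and mTORC1 sensing, 2 fell, against 1.39% of all tested genes. They were the autophagy genes Gabarapl1 (-0.34, adjusted p = 0.0122) and Sqstm1 (-0.26, adjusted p = 0.0453), the second of which lost its call in 9 removals. The number of lysosomal genes called was 1 without KO myelin replicate 1, 2 or 3 or KO untreated replicate 1 or 3, and 5 without KO untreated replicate 4. Of 11 receptors and adaptors for debris clearance, 2 rose, against 1.37% of all tested genes. They were Elmo1 (0.40) and Dock1 (0.45), which together drive engulfment, and their calls ended in 7 and 9 removals.

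The lipid genes gave few calls. Of 20 tested LXR targets 2 rose, against 1.37% of all tested genes. Pltp, the phospholipid transfer protein, held 260, 244, 252, 260 and 247 scaled TPM in KO myelin libraries and 176, 199, 194, 195 and 206 in KO untreated libraries. The groups were far apart for their spread, and the change was 0.38 ± 0.05 (adjusted p = 0.00424), kept in all removals. Lpl, lipoprotein lipase, rose by 0.32 ± 0.08 (adjusted p = 0.047), a call lost in 8 removals. Abcg1, an exporter of cholesterol to lipoproteins, stood at 16.1, 13.1, 12, 15.8 and 17.7 scaled TPM after myelin and at 12, 12.1, 11.2, 11.8 and 10.9 untreated, which overlap (0.33 ± 0.10, adjusted p = 0.0971). Abca1, the exporter that loads lipid-free apolipoproteins, was at 0.12 (adjusted p = 0.405). Mylip, an LXR-induced ubiquitin ligase, was at -0.02 (adjusted p = 0.915).

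None of 11 mevalonate and squalene enzymes, 9 enzymes from lanosterol to cholesterol and 11 genes of SREBP control and sterol uptake was called by limma; at an unadjusted p under 0.05 there were 0, 2 and 0 higher and 1, 0 and 1 lower. Fdps, farnesyl diphosphate synthase, averaged 223 ± 19.1 scaled TPM in KO myelin libraries and 223 ± 6.43 in KO untreated libraries. Sqle, squalene epoxidase, had an estimate of -0.08 (adjusted p = 0.533). In lipid storage and fatty acid binding 2 of 14 fell, against 1.39% of all tested genes. Fabp7, a fatty acid binding protein known from astrocytes and radial glia, stood at 33, 35.5, 28.2, 28.7 and 24.8 scaled TPM after myelin and at 41.5, 45.3, 67.6, 51.8 and 56.3 untreated (-0.78 ± 0.13, adjusted p = 0.0105). Pnpla2, the first lipase of lipid droplets, fell by 0.26 (adjusted p = 0.0233), a call lost in 4 removals. Plin2, which coats lipid droplets, ranged over 2073 to 2203 scaled TPM in KO myelin libraries and over 1835 to 2042 in KO untreated libraries and was not called (0.13, adjusted p = 0.127). Genes that mark lipid-laden macrophages were not called either: Gpnmb was at 0.11, Psap at 0.13, Atp6v0d2 at 0.22 and Fabp4 at -0.04.

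**Figure D3:**
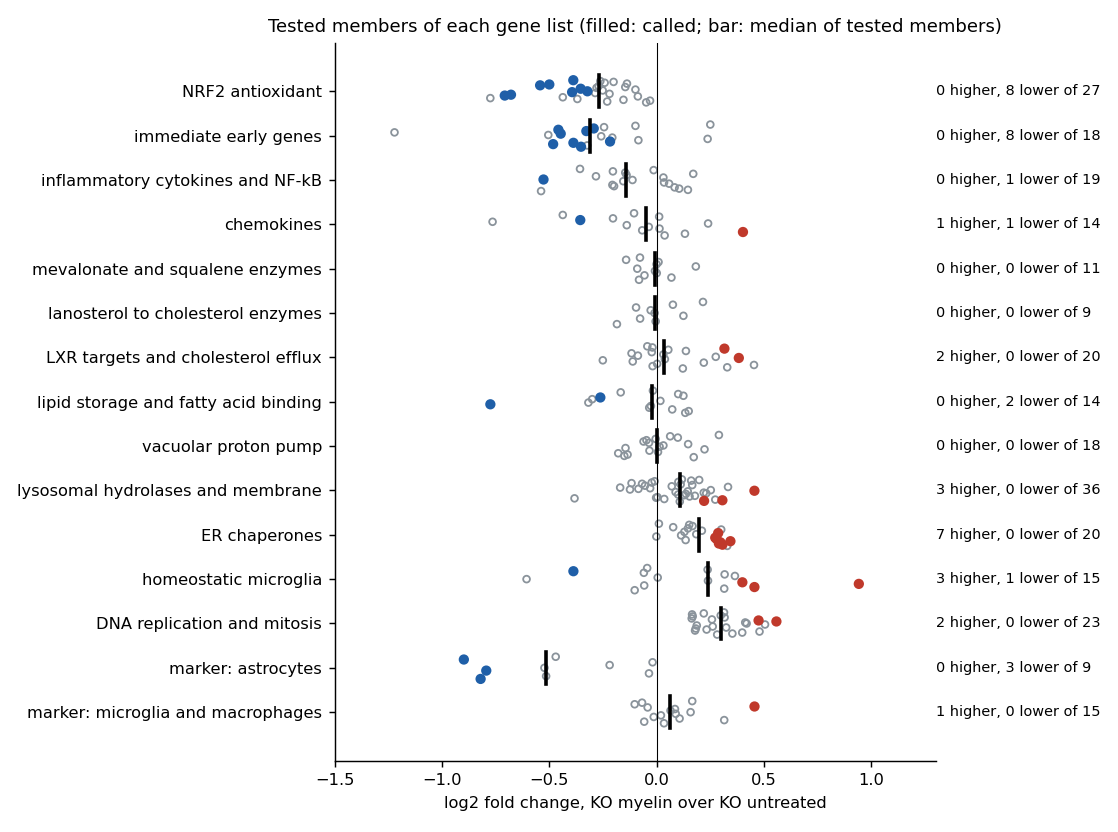
Log2 fold change of KO myelin over KO untreated for the tested members of 15 gene lists, 1 point per gene; filled points are called, bars are medians, and the counts stand on the right. All 27 points of the NRF2 list and 16 of 18 of the immediate early list lie left of 0, 19 of 20 of the ER chaperones and all 23 of DNA replication right of it, and the sterol lists around 0.

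In the list of DNA replication and mitosis 2 of 23 tested members rose, against 1.37% of all tested genes, and 0 fell. All 23 had a positive estimate, with a median of 0.30. Mcm6, a subunit of the replicative helicase, stood at 56.9, 60.5, 51, 48.6 and 63.8 scaled TPM in KO myelin libraries and at 38.3, 39.4, 42.2, 43 and 37.1 in KO untreated libraries (0.47 ± 0.08, adjusted p = 0.0112), and its call held in all removals. Mcm5, of the same helicase, was at 0.56 ± 0.13 (adjusted p = 0.042) and lost its call in 7 removals. The number called was 1 without KO myelin replicate 2 or 3 or KO untreated replicate 1, 2, 3 or 5, and 5 without KO myelin replicate 4. Histone genes went the other way; they were grouped after their values had been seen. Of 19 tested, 9 fell, against 1.39% of all tested genes, and 0 rose. The called changes ran from -1.16 to -0.30, and 7 of the 9 genes lie on chromosome 13. Hist1h3e stood at 12.9, 16.1, 14.2, 17.2 and 14.8 scaled TPM in KO myelin libraries, against 29.7, 32.6, 26.6, 33.5 and 30.3 in KO untreated libraries. Each KO myelin value was far below the lowest untreated one, and at -0.98 ± 0.09 it had the smallest adjusted p of all genes, 0.000722. Hist1h4n was at -1.15 ± 0.18 (adjusted p = 0.0078) and Hist1h2bg at -0.80 ± 0.10 (adjusted p = 0.00424). Histone genes are near-identical copies, so reads may be split between them and the value of a single copy is uncertain. Polyadenylated RNA was amplified, so these values cover only the polyadenylated part of histone RNA and not all of it.

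Energy and growth genes gave few calls. Of 19 glycolysis and hypoxia genes 1 rose, against 1.37% of all tested genes, and 1 fell, against 1.39%. The lactate dehydrogenase gene Ldha rose (0.22 ± 0.05, adjusted p = 0.035), and the pyruvate kinase gene Pkm fell (-0.28 ± 0.06, adjusted p = 0.0238). Their calls ended in 7 and 4 of the 10 removals. None of 31 nuclear genes of the respiratory chain and none of 32 cytosolic ribosomal protein genes was called by limma, with 2 and 1 higher and 1 and 1 lower at an unadjusted p under 0.05.

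Of 18 markers of astrocytes 9 passed the filter. Of these, 3 fell, against 1.39% of all tested genes, all 9 had a negative estimate, and the median was -0.52. Gfap, the intermediate filament of astrocytes, stood at 13.5, 17.8, 17.6, 16.3 and 18 scaled TPM in KO myelin libraries and at 37.6, 28.6, 40.8, 25.9 and 21.3 in KO untreated libraries (-0.82 ± 0.16, adjusted p = 0.0168). Clu, the secreted apolipoprotein J, averaged 10.4 ± 1.12 scaled TPM after myelin and 20.5 ± 4.55 untreated (-0.90 ± 0.13, adjusted p = 0.00598). Slc1a3, a glutamate transporter of astrocytes, averaged 3.08 ± 0.722 scaled TPM after myelin and 6 ± 0.524 untreated (-0.79 ± 0.13, adjusted p = 0.0105). It passed the filter of 5 scaled TPM only through its KO untreated libraries, so its entry into the list already favoured a fall. Without a filter on low values, 2 of all 18 markers were called lower, with a median of -0.49. Among the 12 lowest called fold changes without overlap, those outside this list included Mt3, a metallothionein (-0.95 ± 0.15, adjusted p = 0.00738), Ndrg2 (-1.02 ± 0.18, adjusted p = 0.0129), Uchl1 (-0.91 ± 0.12, adjusted p = 0.00424) and Olig1 (-0.82 ± 0.13, adjusted p = 0.0098). Olig1 is a marker of oligodendrocyte precursors, and the only other tested marker of that list had a positive estimate.

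Summed over all 18 genes, astrocyte markers held 313 to 355 scaled TPM in KO myelin libraries and 361 to 433 in KO untreated libraries, without overlap. Most of that sum was Glul, glutamine synthetase (mean 270 scaled TPM in KO myelin libraries and 274 in KO untreated libraries). In bulk RNA, fewer cells of a type and less RNA per cell cannot be told apart. Neuron markers summed to 7.32 to 10.8 scaled TPM after myelin and 12.6 to 19.2 untreated. Lymphocyte markers summed to 3.24 to 5.93 after myelin and 6.23 to 7.01 untreated. Neither sum overlapped between the groups. No member of these lists passed the filter on low values, so both sums lie near the floor and no change of a single marker was tested. Oligodendrocyte precursor markers held 11.3 to 14 scaled TPM in KO myelin libraries and 13.9 to 17.9 in KO untreated libraries. The ranges of the other marker sums overlapped between the groups. In KO myelin libraries they were 1073 to 1191 scaled TPM for oligodendrocytes and myelin, 16.4 to 20.8 for endothelial cells, 4.03 to 6.44 for neutrophils, 346 to 927 for fibroblasts and pericytes and 1799 to 2211 for border macrophages. In KO untreated libraries they were 1162 to 1233, 18.8 to 25.1, 5.78 to 8.74, 370 to 1581 and 1859 to 2158 in the same order. Nkg7, a lymphocyte marker, was listed at 0 in every KO library; no other marker was. The mean log2 level of the astrocyte markers was 2.177 ± 0.034 in KO myelin libraries and 2.644 ± 0.129 in KO untreated libraries (SD, n = 5 each). A covariate made of it largely follows treatment. The fit with this covariate, which left 0 calls, therefore cannot separate marker level from treatment. The part of these markers in the falls and rises above was not tested.

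**Figure D4:**
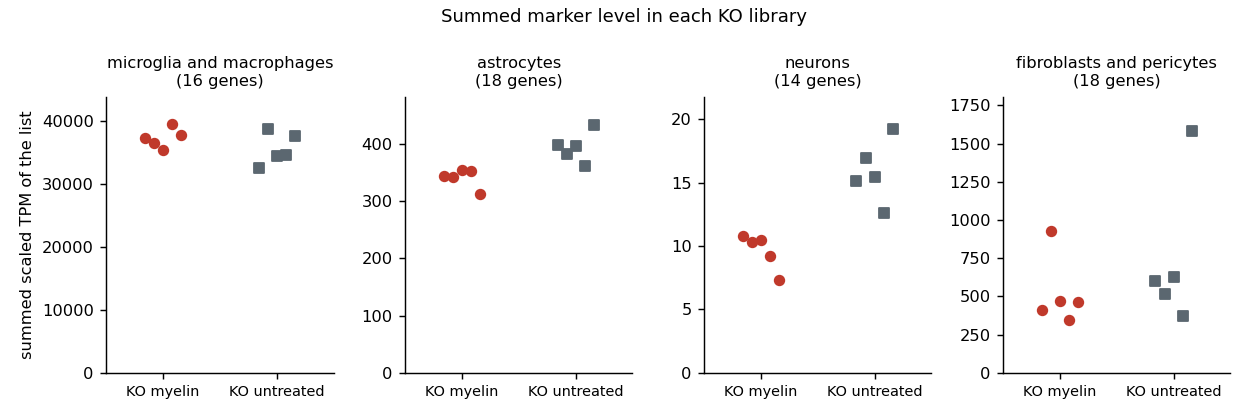
Summed scaled TPM of 4 marker lists in each KO library, KO myelin left and KO untreated right, with 1 point per library and axes starting at 0. Astrocyte markers (313 to 355 after myelin and 361 to 433 untreated) and neuron markers (7.32 to 10.8 after myelin and 12.6 to 19.2 untreated) do not overlap between groups, while microglia and fibroblast markers do. No neuron marker passed the filter on low values, so the neuron sum lies near the floor.

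The knockout response was then set against those of WT, E3 and E4 cells, each as a difference of responses in a fit of 38 libraries. The comparisons share the 10 KO libraries, so their calls are not independent of each other. The response of the knockout differed from that of WT in 459 genes (5.14% of those tested; 184 with a higher fold change in KO, 2.06%, and 275 with a lower one, 3.08%). It differed from that of E3 in 121 genes (1.35%; 69 higher, 0.772%, and 52 lower, 0.582%) and from that of E4 in 141 (1.58%; 60 higher, 0.672%, and 81 lower, 0.907%). On the coding total alone 75 were higher and 34 lower against E3. In the same fit of 38 libraries, the response within WT cells had 765 called genes (8.56%, with 6.86% higher and 1.7% lower). The response within E3 cells had 786 (8.8%, with 5.51% higher and 3.29% lower). That within E4 cells had 1414 (15.8%, with 9.17% higher and 6.66% lower). The KO calls came from the fit of the 10 KO libraries, so counts of KO and of the other genotypes rest on unlike spreads. Of the 122 genes that rose in KO, 9 also rose in WT, 33 in E3 and 52 in E4, which are 1.47%, 6.71% and 6.35% of the genes that rose in those genotypes. Of the 124 that fell in KO, 10, 14 and 47 also fell, which are 6.58%, 4.76% and 7.9% of the genes that fell there. Of all tested genes, 1.37% rose in KO and 1.39% fell. Between KO and WT, 11 genes were called in opposite directions. Of the 122 risen genes, 37 had a positive estimate in WT, 93 in E3 and 108 in E4. Of the 124 fallen genes, 92 had a negative estimate in WT, 99 in E3 and 108 in E4. Over all tested genes the Pearson correlation of the KO fold changes was -0.028 with WT, 0.325 with E3 and 0.413 with E4. Among the 246 genes called in KO, the difference from WT was itself called in 97, from E3 in 25 and from E4 in 18. Of all tested genes, 5.14%, 1.35% and 1.58% had such a call. The 246 were picked by their KO fold change, which is part of each difference. Their selection alone favours such calls, so no conclusion is drawn from these counts.

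Single libraries moved these counts as well. The count against WT was 874 and 176 without WT myelin replicate 2 or 1, and 727, 294, 157 and 194 without WT untreated replicate 1, 3, 4 or 5. It was 270 without KO myelin replicate 3, and 238 and 224 without KO untreated replicate 1 or 2. The count against E3 was 77 and 72 without KO myelin replicate 1 or 2, 56 without KO untreated replicate 1, 47 without E3 myelin replicate 3, and 57 and 79 without E3 untreated replicate 1 or 4. The count against E4 was 93 without KO myelin replicate 1, 82 without KO untreated replicate 1 and 79 without E4 myelin replicate 3. The E3 and E4 libraries held less coding RNA than those of the knockout, 15.6 ± 6.04% in E3 myelin and 13.6 ± 2.33% in E3 untreated libraries (SD, n = 4 each), and 18.6 ± 3.39% in E4 myelin and 12.1 ± 3.24% in E4 untreated libraries (SD, n = 5 each); its part in these differences was not tested beyond the covariate fit.

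Lipid genes set the knockout apart from the human APOE genotypes. The fold change of Abcg1 was 0.33 in KO, 0.24 in WT, 2.12 in E3 and 2.33 in E4. The difference of KO from E3 was -1.79 (adjusted p = 5.23e-08) and from E4 -2.0 (adjusted p = 5.46e-10), while that from WT was not called (adjusted p = 0.804). Mylip followed the same pattern, at -0.02 in KO, 0.04 in WT, 0.86 in E3 and 0.82 in E4 (adjusted p of the differences from E3 and E4 0.000227 and 7.5e-05). Fdps changed by 0.00 in KO, -0.14 in WT, -0.75 in E3 and -0.84 in E4 (adjusted p = 0.000518 and 2.19e-05 against E3 and E4). Of the 11 mevalonate and squalene enzymes, 0 fell in KO (1.39% of all tested genes), 1 in WT (1.7%), 6 in E3 (3.29%) and 8 in E4 (6.66%). These counts come from unlike fits and do not themselves test a difference. The difference was called for 2 against E3 (0.772% of all tested genes) and 4 against E4 (0.672%), all with the higher value in KO.

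Several genes known from lipid-laden macrophages also had a lower fold change in KO than in E3 and E4. Gpnmb, a glycoprotein of lysosome-rich macrophages, changed by 0.11 in KO, 0.76 in E3 and 1.16 in E4 (adjusted p of the differences 0.00954 and 2.86e-06). Psap, the precursor of the saposins that help degrade sphingolipids, changed by 0.13 in KO, 0.78 in E3 and 0.93 in E4 (adjusted p = 0.00465 and 8.67e-05). Fabp4, a fatty acid binding protein of macrophages, changed by -0.04 in KO, 0.88 in E3 and 1.0 in E4 (adjusted p = 0.00959 and 0.00062). Atp6v0d2, a subunit of the vacuolar proton pump, changed by 0.22 in KO, 0.91 in E3 and 1.32 in E4 (adjusted p = 0.0447 and 0.000236); the difference from E3 held in only 4 of 18 single removals. Of the 36 lysosomal genes 3 rose in KO (1.37% of all tested genes), 1 in WT (6.86%), 18 in E3 (5.51%) and 23 in E4 (9.17%). These counts do not themselves test a difference. The difference was called lower in KO for 3 of the 36 against E3 (0.582% of all tested genes) and 7 against E4 (0.907%), and higher in KO for 2 against WT (2.06%). None of Abcg1, Mylip, Fdps, Gpnmb, Psap, Fabp4 and Atp6v0d2 had a called difference between KO and WT.

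**Figure D5:**
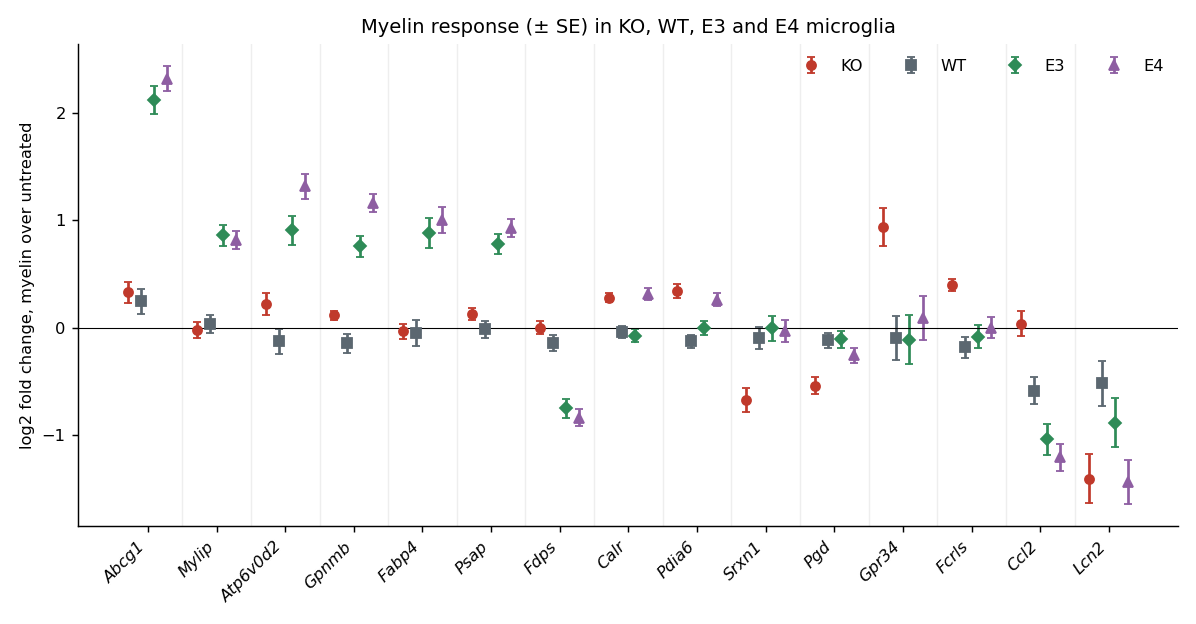
Log2 fold change of myelin over untreated (± SE) for 15 genes in KO (circles), WT (squares), E3 (diamonds) and E4 (triangles) microglia. Abcg1 to Psap lie high in E3 and E4, and Fdps low there, whereas Srxn1 and Pgd lie lowest in KO and Gpr34 and Fcrls highest in KO.

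Other differences were called between the knockout and WT. Of 20 ER chaperones 8 had a higher fold change in KO than in WT (2.06% of all tested genes), 3 than in E3 (0.772%) and 0 than in E4 (0.672%). Within each genotype, 3 rose in WT (6.86% of all tested genes), 2 in E3 (5.51%) and 10 in E4 (9.17%) in the fit of 38 libraries. In the fit of the 10 KO libraries 7 rose (1.37%). Calr changed by 0.28 in KO, -0.04 in WT, -0.07 in E3 and 0.31 in E4 (adjusted p of the differences 0.0187, 0.0264 and 0.905), and the difference from E3 was lost in 3 of 18 removals, those of E3 untreated replicate 1, E3 myelin replicate 2 and KO untreated replicate 1 (highest adjusted p = 0.0687). Pdia6 changed by 0.34 in KO, -0.13 in WT, -0.01 in E3 and 0.26 in E4 (adjusted p = 0.00412, 0.0447 and 0.751), and the difference from E3 held in 6 of 18 removals. Among NRF2 targets the difference was lower in KO for 4 of 27 against WT (3.08% of all tested genes), 3 against E3 (0.582%) and 4 against E4 (0.907%). Within each genotype, 1 of the 27 fell in WT (1.7% of all tested genes), 0 in E3 (3.29%) and 7 in E4 (6.66%) in the fit of 38 libraries. In the fit of the 10 KO libraries 8 fell (1.39%). Srxn1 changed by -0.68 in KO, -0.09 in WT, -0.01 in E3 and -0.03 in E4, and each of these 3 differences was called (adjusted p = 0.0203, 0.0226 and 0.0148). The difference from E3 held in 15 of 18 removals and was lost without E3 untreated replicate 1, E3 myelin replicate 3 or KO untreated replicate 1 (highest adjusted p = 0.073). Pgd changed by -0.54 in KO against -0.12 in WT and -0.11 in E3 (adjusted p = 0.0138 and 0.0281) and -0.26 in E4 (adjusted p = 0.158); the difference from E3 held in 12 of 18 removals (highest adjusted p = 0.0864). For Slc7a11 no difference was called: it changed by -0.71 in KO, -0.43 in WT, -0.09 in E3 and -0.72 in E4.

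Among the extremes of the difference from WT, Pkd1 (1.49), Gpr34 (1.04), Slc9a9 (0.98), Mctp1 (0.93) and Cdk5rap2 (0.87) were highest, and Scand1 (-2.0), Hspb1 (-1.72), Chpf (-1.72), Nbl1 (-1.71) and Phlda3 (-1.68) lowest, all on the log2 scale. The call on Gpr34 held in 12 of 20 removals. Dusp1 fell in KO but changed by 1.06 in WT, a difference of -1.39 (adjusted p = 0.0345). Against E3 and E4, Ccl2, the monocyte attractant, had differences of 1.08 and 1.25 (adjusted p = 0.00223 and 7.5e-05), since it changed by 0.04 in KO, -1.04 in E3 and -1.21 in E4. Ccl4 changed by 0.40 in KO, -0.12 in WT, -0.31 in E3 and -0.28 in E4 (adjusted p = 0.0328, 0.0126 and 0.0101); the difference from WT held in 12 of 20 removals (highest adjusted p = 0.0729). Lcn2, the deepest fall in KO, changed by -0.52 in WT, -0.89 in E3 and -1.44 in E4, and none of these differences was called (adjusted p = 0.0637, 0.449 and 0.98).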

How the data were processed

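Polyadenylated RNA was amplified by a kit for low input, as the labels' protocols state. The authors deposited gene values in TPM for 53697 genes; Salmon 0.13.1, limma 3.40.6 and mm10 are named in the submitters' processing notes, without a role. Each column was divided by its total over nuclear protein-coding genes and multiplied to 1000000, then corrected by a trimmed mean of log ratios (trimming 30% by ratio and 5% by level, on both sides). A gene was tested if it was coding (8820) or lincRNA (113) and reached 5 scaled TPM in 5 or more of the 10 KO libraries. The pseudocount was 1, so fold changes understate low genes, and total RNA per cell cannot be seen.

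The KO response was fitted on 10 libraries with limma 3.58.1 (R 4.3.3, data.table at version 1.17.8; trended empirical Bayes, no weights), two-sided, with Benjamini-Hochberg adjustment over all 8933 genes. WT, E3 and E4 responses and the differences came from 38 libraries; Het libraries were left out, since several hold little coding RNA. The fits were tested on simulated data. Gene positions came from the GENCODE annotation of mm10, promoters from RefSeq. Genes named were the 12 highest and 12 lowest called without overlap, up to 4 called members of each of 41 lists, a preset panel of pathway genes, and 5 each way per difference; exceptions are marked in the text. The libraries and lists were chosen with earlier results of these data known. Alternatives covered scaling, pseudocount, filter, weights, covariates, a replicate block, other sets of libraries and single removals. Some genes counted in the lists are not reported here by name.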

Additional observations from a re-analysis of the deposited data

Results flagged for a closer look

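In 8 of 62 groups of 5 KO libraries, over 31 genes named in the text, 1 library stood far from the other 4; chance flags about 1 in 20 such groups. KO untreated replicate 1 was highest for Slc7a11 (23 scaled TPM, others 15.2 to 17.3) and Pgd (560, others 421 to 459). KO untreated replicate 4 was highest for Mctp1 (16.7, others 12.2 to 13.4) and lowest for Nr4a1 (47.8, others 52.8 to 53.9). KO untreated replicate 3 was highest for Pkd1 (21.4, others 7.56 to 11), replicate 5 for Btg2 (126, others 103 to 107) and replicate 2 for Zfp36 (313, others 286 to 292). KO myelin replicate 4 was highest for Fdps (257, others 210 to 219).

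The myelin response differed between the knockout and another genotype, by a test of the difference itself, in 459 genes against WT, 121 against E3 and 141 against E4. Values are the KO fold change minus the other, on the log2 scale. Against WT they were 1.49 for Pkd1, 1.04 for Gpr34, 0.98 for Slc9a9, 0.93 for Mctp1, 0.87 for Cdk5rap2, -2.0 for Scand1, -1.72 for Hspb1, -1.72 for Chpf, -1.71 for Nbl1 and -1.68 for Phlda3. Against E3 they were 1.15 for Ccl12, 1.08 for Ccl2, 1.05 for Slamf9, 0.95 for Uhrf1, 0.93 for Ch25h, -1.79 for Abcg1, -1.71 for Rnf128, -1.10 for Olig1 and -1.03 for Gsr. Against E4 they were 1.29 for Ifi27l2a, 1.25 for Ccl2, 1.13 for Ccl7, 0.94 for Ch25h, 0.94 for Siglece, -2.0 for Abcg1, -1.80 for Igfbp2, -1.45 for Gclm, -1.42 for Rnf128 and -1.39 for Apoe. The calls on Ccl12 and Gsr against E3 each held in 9 of 18 single removals, and that on Gclm against E4 in 10 of 20. Mouse Apoe is not intact in KO and is replaced by human APOE4 in E4, so its value is not a response of the intact mouse gene.

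Among the genes of the lipid response the differences against E3 and E4 were -0.88 and -0.84 for Mylip, 0.75 and 0.84 for Fdps, -0.66 and -0.80 for Psap, -0.65 and -1.05 for Gpnmb, -0.69 and -1.09 for Atp6v0d2, and -0.92 and -1.04 for Fabp4. For Srxn1 they were -0.58 against WT, -0.67 against E3 and -0.65 against E4, and for Ccl4 0.52, 0.71 and 0.68. Against WT and E3 they were 0.32 and 0.35 for Calr, 0.47 and 0.35 for Pdia6, and -0.43 and -0.43 for Pgd; Hsp90b1 differed from WT by 0.47.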

How the results depend on the processing

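Counts are given for the KO response, then for its difference from WT, E3 and E4, whose main values were 246, 459, 121 and 141. Without a filter on low values they were 86, 195, 72 and 84. With library weights they were 423, 1208, 588 and 623, and with all 47 libraries and weights 510, 1214, 598 and 641. With all 47 libraries and no weights limma called 13, 1, 0 and 6, with 503, 1073, 584 and 546 at an unadjusted p under 0.05. With the coding share as a covariate the KO response had 149 and the differences from E3 and E4 338 and 224. On the coding total alone the difference from WT had 158. Of alternatives added after seeing the data, the astrocyte marker level as a covariate gave 0 for the KO response (292 at an unadjusted p under 0.05) and 80 for the difference from WT, and leaving out KO untreated replicates 2 and 5 gave 49 and 104. Single removals gave 118 to 335, 157 to 874, 47 to 127 and 79 to 168. The cause of these shifts was not tested.

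Libraries with the same replicate number did not deviate together (correlations from -0.298 to 0.121, and 0 of 5 correlated best with its own number), so the number was not taken as a pairing. With the replicate block the KO response had 39 calls, all among the 246, and the difference from E4 70; those from WT and E3 had 481 and 89.

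Of 80 called genes of the KO response that were followed, 48 kept their call in every single removal and 80 kept their sign. The estimate of Fos turned to 0.09 with the astrocyte covariate. The comparisons of Apoe kept their side of the threshold. TPM give no depth, so no limit from counting can be stated.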
